A study of Mus musculus with 4 samples.

Results

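Integrins and the proteins that anchor them to actin in focal adhesions were followed in mouse myoblasts given wild-type or mutant lamin A. The genes are 39 chosen by name, of 55416 genes in the files: 11 alpha and 6 beta subunits of integrins, 4 talins and kindlins, 4 genes of the ILK complex, 5 kinases and adaptors, and 9 genes of the actin-linked plaque. A gene's value is the sum of TPM, an abundance corrected for transcript length and library total, over its annotated transcripts, and 32 of the 39 reached a mean TPM of at least 0.5 and were counted as measured.

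Integrins are the receptors by which cells hold the extracellular matrix, and they work as pairs of 1 alpha and 1 beta subunit. Talins and kindlins bind the beta tail inside the cell and switch the pair on, the complex of ILK, PINCH and parvin links it to actin, kinases such as FAK and Src signal from it, and actinins, filamins, tensins, zyxin and VASP form the actin side of the plaque called the focal adhesion. In muscle these adhesions carry force between the contractile apparatus and the matrix, and in cultured myoblasts they hold the cell to the dish and take part in spreading and migration.

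RNA came from C2C12 cells, a mouse myoblast line, transfected with 3 µg of DNA for wild-type lamin A (2 libraries) or for K97E lamin A (2 libraries) and collected 24 h later. Lamin A builds the filament mesh under the nuclear envelope, and the design text calls K97E a mutant of dilated cardiomyopathy (DCM). All 4 libraries therefore come from transfected cells that also have their own Lmna gene. No untransfected cells were analysed here, and the labels do not state how many cells took up the DNA. Titles of the K97E libraries spell the line C1C12, while their cell line entries give C2C12. The libraries are called biological replicates, without saying whether they came from separate cultures. Each p-value therefore rests on the spread of these 4 samples alone, which may be technical.

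Depth, estimated from coverage, was 89.6 and 106.4 M reads of 100 bases with wild-type lamin A and 115.6 and 107.8 M with K97E. Wild-type replicate 1 was thus the shallowest library and K97E replicate 1 the deepest, and the part of depth in the results below was not tested. Lmna stood at 569 and 608 with wild-type lamin A and 632 and 631 with K97E, in TPM divided by a scaling factor for each library. This normalised TPM is used for the levels below. Sums of markers and values given as plain TPM are unscaled. Among myoblast markers the intermediate filament gene Des stood between 384 and 476, Chrna1 between 38.5 and 52.9 and Myod1 between 4.37 and 5.06. Of the 5 measured myoblast markers 3 (Des, Chrna1 and Myod1) had both K97E libraries below both wild-type libraries, as in 16.8% of all tested genes, with log2 differences of -0.20, -0.37 and -0.14. The groups overlapped for Myf5 and Cdh15, at -0.14 and 0.030. None was called by limma after adjustment, and 1 (Chrna1) had an unadjusted p under 0.05. The summed TPM of the 9 myoblast markers in the files ran from 525 to 620. Genes of differentiated fibres (Myog, Ckm, Acta1 and Myh3) had a mean TPM under 0.5. Summed TPM of 8 leukocyte markers ran from 5.89 to 9.41, led by Cd68 and Cd163, with Adgre1 and Cd3e at 0 and Ptprc at most 0.0506. Epithelial markers summed to at most 0.625 with Cdh1 at 0, and the highest were Krt14 and Krt8. Summed TPM was between 8.16 and 10.9 for platelet markers (led by Ppbp and Pf4), 69.4 and 86.1 for fibroblast (Pdgfrb and Pdgfra), 5.28 and 8.01 for neural (Tubb3 and Map2, with Sox10 at 0) and 423 and 709 for smooth muscle markers (Acta2 and Smtn), and at most 24.9 for endothelial markers (Cdh5 and Flt1). Both K97E libraries lay above the wild-type ones in the fibroblast sum, with Pdgfrb at 64.4 and 60.3 against 71.4 and 71.1. In the myoblast and endothelial sums both K97E libraries lay below both wild-type libraries, and in the other sums the groups overlapped. By gene value, 16.3% of all tested genes had both K97E libraries above and 16.8% below. How often sums of this kind lie apart by group was not worked out. The part of these marker levels in the results below was not tested.

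The comparison asked how each gene stood with K97E against wild-type lamin A. No integrin or focal adhesion gene changed by limma's test with Benjamini-Hochberg adjustment over all 16304 genes tested, where 1 gene, 0.00613% of those tested, was called. The adjusted p of the 32 measured genes ran from 0.965 to 0.998. At an unadjusted p under 0.05 there was 1 of them, Itgb3, which was higher with K97E. Of all tested genes 3.68% had such a p in either direction and 1.14% with a higher value. Limma with voom weights called no member either. By value 21 of the 32 were higher and 11 lower with K97E, against 49.5% of all tested genes higher, and their median log2 difference was 0.086, against -0.0017 over all tested genes. In 9 genes both K97E libraries lay above both wild-type libraries, a pattern held by 16.3% of all tested genes, and in 1 gene, Itga6, both lay below, as in 16.8%. For 30 of the 32 genes the 95% interval of the difference lay within a 2-fold change in either direction. The exceptions were Itga10 and Lims2, the 2 least abundant. Leaving out wild-type replicate 1 brought the median difference to 0.010, and leaving out K97E replicate 1 to 0.014. It was 0.17 without wild-type replicate 2, and 0.041 after correction for GC content, a setting chosen after seeing the data. By sign, 11 of the 32 genes kept the direction of their difference under all 18 alternative settings tried, Tln1 kept it under the 17 that gave it a value, and 20 turned under at least 1.

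**Figure D1:**
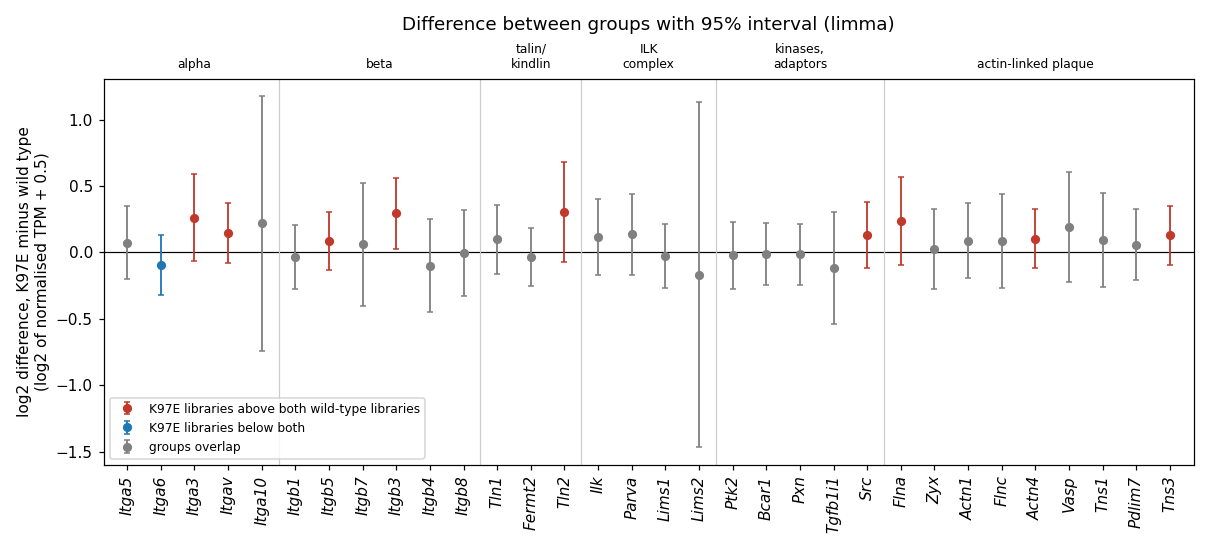
Log2 difference between K97E and wild-type lamin A for the 32 measured genes, grouped by role, on the scale of log2(normalised TPM + 0.5). Points are limma estimates and bars their 95% intervals, which include 0 for 31 genes; the interval of Itgb3 runs from 0.029 to 0.56, and those of Itga10 and Lims2 are the widest.

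Of 11 alpha subunits 5 were measured. Itga5, the alpha chain of the fibronectin receptor, was the most abundant of these 5. It stood at 124 and 145 with wild-type lamin A and 145 and 137 with K97E. Wild-type replicate 1 was the lowest of the 4, and the groups overlapped, with a log2 difference of 0.072. Itga7, which is not among the 11, lay above Itga5 in every library. Its levels were 127 and 191 with wild-type lamin A and 146 and 169 with K97E. Itga6, a laminin receptor chain, stood at 112 and 112 with wild-type lamin A and 100.1 and 110 with K97E. Both K97E libraries thus lay below the wild-type ones, by a log2 difference of -0.094. Among its transcripts this held for ENSMUST00000126787, of 3 exons, at 42.9 and 43.2 TPM against 37.9 and 41.6 with K97E. The groups overlapped for ENSMUST00000028522, of 26 exons, at 61.6 and 62.5 TPM against 61.5 and 64.3. By gene sum Itga5 lay above Itga6 in every library, and Itga6 above Itga3. The Itga6 transcript of 26 exons lay below the Itga3 sum in K97E replicate 1 alone, at 61.5 against 72.1 TPM.

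Itga3, another laminin receptor chain (ENSMUSG00000001507; GRCm39 chromosome 11, 94935300 to 94967627, minus strand), stood at 49.4 and 61.4 with wild-type lamin A and 69.1 and 63.3 with K97E. Wild-type replicate 1 was low and the groups did not overlap. The log2 difference was 0.26 (SE 0.13, 95% interval -0.062 to 0.59, limma adjusted p = 0.965), and leaving out wild-type replicate 1 or wild-type replicate 2 gave 0.11 or 0.42. Itgav, which pairs with several beta chains to bind vitronectin and latent TGF-beta, stood at 48.6 and 51.6 with wild-type lamin A and 57.2 and 53.7 with K97E, with a log2 difference of 0.15 (SE 0.091, 95% interval -0.081 to 0.37, limma adjusted p = 0.965). The ranges of Itga3 and Itgav over the libraries overlapped. Itga10, a collagen receptor chain known from cartilage, was the least abundant measured alpha chain, at 0.808 and 2.07 with wild-type lamin A and 2.12 and 1.23 with K97E, with wild-type replicate 2 and K97E replicate 1 as the high libraries. Its log2 difference of 0.22 had a 95% interval from -0.74 to 1.18. The other 6 alpha chains lay under the threshold. Itga11, a collagen receptor chain, came closest at a mean TPM of 0.385, where Itga10 stood at 1.57. Itga1, Itga2, Itga4, Itga8 and Itga9 were at 0.039 TPM or less in every library.

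All 6 beta subunits were measured. Itgb1, the common partner of the laminin, collagen and fibronectin receptors, stood at 383 and 372 with wild-type lamin A and 382 and 355 with K97E, and made up between 64.7% and 67.4% of the TPM of the 6 beta chains. Its groups overlapped, with a log2 difference of -0.035 and a 95% interval from -0.28 to 0.21. Itga3, Itga5, Itga6 and Itgav, the 4 abundant alpha chains among those listed, summed to between 334 and 372 normalised TPM per library. The 6 beta chains summed to between 548 and 586. This alpha sum leaves out Itga7, which stood between 127 and 191. Itgb5, a vitronectin receptor chain, stood at 123 and 115 with wild-type lamin A and 125 and 128 with K97E. Both K97E libraries lay above the wild-type ones, by a log2 difference of 0.089.

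Itgb3, which pairs with the alpha v chain in cells outside the blood (ENSMUSG00000020689; GRCm39 chromosome 11, 104498826 to 104561302, plus strand), stood at 11.3 and 12.4 with wild-type lamin A and 14.9 and 14.4 with K97E. The K97E libraries were close to each other and above both wild-type libraries. The log2 difference was 0.29 (SE 0.11, 95% interval 0.029 to 0.56, limma adjusted p = 0.965), a ratio of 1.23, and it lay between 0.23 and 0.36 with any 1 library left out. It was the gene with the smallest unadjusted p of the 32 (limma, 0.0352) and did not pass after adjustment over all genes.

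Itgb7 is best known from lymphocytes, where it pairs with the alpha 4 and alpha E chains, and it stood here at 38.1 and 48.0 with wild-type lamin A and 52.0 and 38.3 with K97E. It ranked above Itgb3 in every library. Its known partners were near 0: Itga4 reached at most 0.018 TPM and Itgae at most 0.197 normalised TPM. Coverage was found on all 15 exons of the leading Itgb7 transcript, ENSMUST00000001327, with at least 27.4 reads per base on each exon in each library. Wild-type replicate 2 and K97E replicate 1 were the high libraries and the groups overlapped, with a log2 difference of 0.059. Leaving out wild-type replicate 1 turned this to -0.11, and leaving out K97E replicate 1 to -0.16. Ptprc, the pan-leukocyte marker, stood at 0.00699 and 0.0506 against 0.0356 and 0.0173 and Itgb2, the beta chain of leukocyte integrins, at 0.699 and 0.532 against 0.697 and 0.461. The 8 leukocyte markers summed to 5.89 and 9.41 TPM against 8.90 and 5.95, highest in the same libraries as Itgb7, and their part in its level was not tested.

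Itgb4, the partner of the alpha 6 chain in epithelial hemidesmosomes, stood between 6.42 and 7.98, and Itgb8, an alpha v partner, between 5.42 and 6.14. In both the groups overlapped. The order of the beta chains was Itgb1, Itgb5, Itgb7, Itgb3, Itgb4 and Itgb8, and no neighbours in it overlapped over the 4 libraries.

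**Figure D2:**
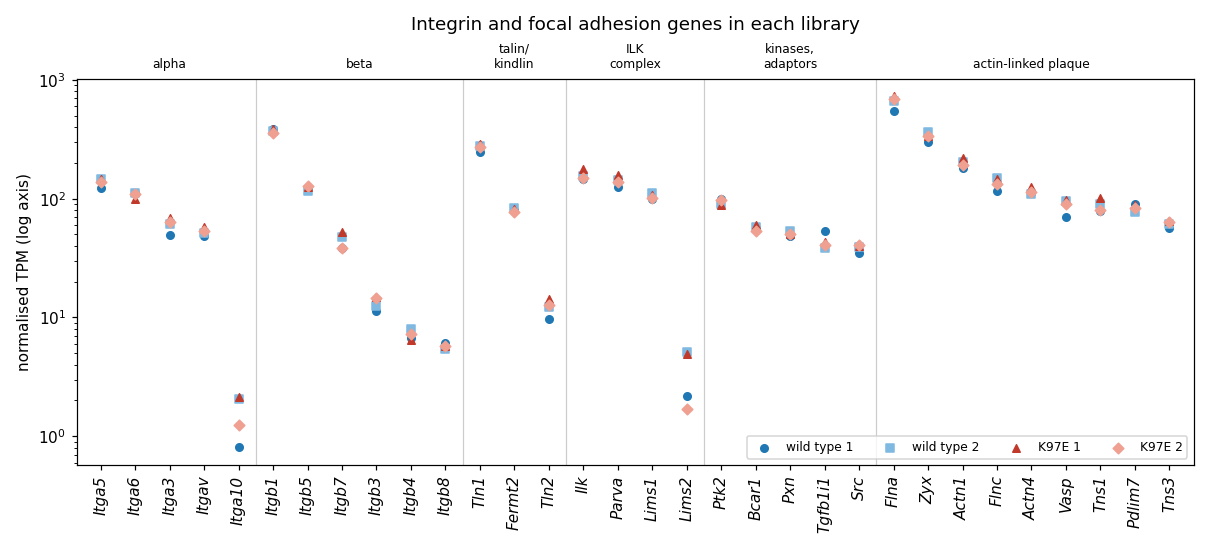
Normalised TPM (log axis) of the 32 measured genes in each of the 4 libraries, grouped by role and ordered by level. Flna and Itgb1 lead their groups, Itgb7 lies between 38.1 and 52.0, and the libraries are farthest apart for Itga10 and Lims2.

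Talins and kindlins are the activators that bind the beta tail. Tln1, the main talin outside muscle and brain, stood at 248 and 278 with wild-type lamin A and 291 and 272 with K97E, with overlapping groups and a log2 difference of 0.097. Its exons overlap those of Creb3 on the other strand, and the command in the file headers sets no strand, so reads of the 2 genes cannot be told apart there. Tln2, the form known from muscle and brain (ENSMUSG00000052698; GRCm39 chromosome 9, 67124369 to 67466985, minus strand), stood at 9.67 and 12.4 with wild-type lamin A and 14.4 and 12.9 with K97E. The K97E libraries lay above the wild-type ones, with wild-type replicate 1 the lowest and wild-type replicate 2 close to K97E replicate 2. The log2 difference was 0.30 (SE 0.15, 95% interval -0.072 to 0.68, limma adjusted p = 0.965), the largest of the 32, and without wild-type replicate 1 it was 0.14. Fermt2, the kindlin of most adherent cells, stood between 77.3 and 83.4 with overlapping groups. Fermt1, the kindlin of epithelia, was at most 0.012 TPM.

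In the complex that couples integrins to actin, Ilk, a pseudokinase, stood at 146 and 156 with wild-type lamin A and 177 and 150 with K97E, and its binding partner Parva, which binds actin, at 124 and 144 with wild-type lamin A and 158 and 137 with K97E. K97E replicate 1 was the highest library for both, and the groups overlapped, with log2 differences of 0.11 and 0.13. Exons of Ilk overlap those of Taf10 and Rrp8 on the other strand. Lims1, the PINCH adaptor of this complex, stood between 100.1 and 112. Its paralogue Lims2 stood at 2.19 and 5.09 with wild-type lamin A and 4.89 and 1.71 with K97E, high in wild-type replicate 2 and K97E replicate 1 and low in the other libraries. Its log2 difference was -0.17 (SE 0.52, 95% interval -1.47 to 1.13, limma adjusted p = 0.987), the lowest of the 32, and it ranged from -0.81 to 0.48 with 1 library left out, at the ends without K97E replicate 1 and without K97E replicate 2.

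Kinases and adaptors signal from the bound integrin. Ptk2, the focal adhesion kinase FAK, stood at 99.1 and 89.6 with wild-type lamin A and 88.4 and 97.1 with K97E, with a log2 difference of -0.024. Bcar1, the docking protein p130Cas, differed by -0.012 and Pxn, the adaptor paxillin, by -0.013, with levels from 53.7 to 60.0 and from 48.3 to 53.0. Their 95% intervals ran from -0.25 to 0.22 and from -0.24 to 0.22. With TPM as deposited the differences of Ptk2, Bcar1 and Pxn turned positive, at 0.034, 0.045 and 0.044. Src, the kinase that FAK recruits, stood at 34.6 and 39.2 with wild-type lamin A and 40.2 and 40.7 with K97E. The K97E libraries lay above the wild-type ones by a log2 difference of 0.13, and wild-type replicate 2 was close to them. Tgfb1i1, the paxillin relative Hic-5, stood at 53.6 and 38.2 with wild-type lamin A and 42.8 and 40.6 with K97E, with wild-type replicate 1 alone high. Its log2 difference was -0.12 (SE 0.17, 95% interval -0.54 to 0.30, limma adjusted p = 0.965), and it turned to 0.12 without that library.

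On the plaque's actin side all 9 genes had a positive difference by value, between 0.025 and 0.24, against 49.5% of all tested genes. Of the 5 kinases and adaptors 1 was higher. Wild-type replicate 1 was the lowest library for 7 of the 9 genes, against 33.2% of all tested genes. None of the 9 passed limma's test after adjustment, had an unadjusted p under 0.05, or was called with voom weights. With the GC correction Zyx and Pdlim7 turned to -0.044 and -0.0024, and Pdlim7 with voom weights to -0.017. Acta2, a smooth muscle actin, stood at 367 and 493 against 605 and 419, lowest and highest in wild-type replicate 1 and K97E replicate 1, and its part in these values was not tested. Flna, the filamin that crosslinks actin and binds beta tails (ENSMUSG00000031328; GRCm39 chromosome X, 73267067 to 73293426, minus strand), stood at 549 and 663 with wild-type lamin A and 730 and 691 with K97E. Wild-type replicate 1 was low, and wild-type replicate 2 was close to K97E replicate 2. The log2 difference was 0.24 (SE 0.13, 95% interval -0.095 to 0.57, limma adjusted p = 0.965), and 0.10 without wild-type replicate 1. Flnc, the muscle filamin, stood at 116 and 149 with wild-type lamin A and 146 and 133 with K97E with overlapping groups, and its difference of 0.084 turned to -0.095 without wild-type replicate 1.

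The alpha-actinins, which bundle actin filaments, stood for Actn1 at 182 and 204 with wild-type lamin A and 218 and 192 with K97E and for Actn4 at 112 and 110 with wild-type lamin A and 124 and 114 with K97E. For Actn4 both K97E libraries lay above the wild-type ones, by a log2 difference of 0.10, and for Actn1 the groups overlapped. Tns3, a tensin that ties the beta tail to actin, stood at 56.8 and 61.3 with wild-type lamin A and 64.7 and 64.3 with K97E, with a log2 difference of 0.13 (SE 0.088, 95% interval -0.093 to 0.35, limma adjusted p = 0.965). Tns1, its relative, stood at 79.0 and 90.8 with wild-type lamin A and 101 and 80.4 with K97E with overlapping groups. Zyx, the zyxin of tension-bearing adhesions, stood at 302 and 364 with wild-type lamin A and 336 and 339 with K97E, and its exons overlap those of Epha1 on the other strand. Vasp, an actin-filament elongation factor, stood at 69.6 and 96.4 with wild-type lamin A and 98.1 and 89.4 with K97E, with wild-type replicate 1 alone low. Its difference of 0.19 turned to -0.041 without that library, and those of Zyx and Tns1 to -0.11 and -0.0094. Pdlim7, a LIM-domain protein on actin fibres, stood between 76.7 and 89.4 with a difference of 0.058.

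Single libraries moved with these values. Wild-type replicate 1 was the lowest of the 4 libraries for 20 of the 32 genes, against 33.2% of all tested genes, and K97E replicate 1 the highest for 16, against 23.6%. Median log2 deviations of the 32 genes from the mean of the 4 libraries were -0.12 and 0.029 for the wild-type libraries and 0.087 and -0.0064 for the K97E libraries. By this median the 2 wild-type libraries were farther apart than wild-type replicate 2 and K97E replicate 2. Transcripts of these genes were rich in G and C, with a median GC content of 55.8% against 49.7% over all tested genes. In wild-type replicate 1 the median deviation over all tested genes went from 0.069 below 45% GC, through -0.066 at 55% to 60%, to -0.10 at 60% and over. The K97E libraries went the other way, to 0.049 and 0.032 at 60% and over. Among the 32 genes, the 24 at 50% GC or more had a median log2 difference of 0.090 and the 8 below it -0.025. With the GC trend removed from each library the median difference was 0.041, 20 of 32 genes were higher by value, and no member was called. Coverage of the 5′ part of long transcripts over that of the 3′ part had a median of 0.898, 0.946, 0.976 and 0.978 over 15 of these genes in the order wild-type 1, wild-type 2, K97E 1 and K97E 2, and of 1.00, 0.999, 1.01 and 1.03 over 2840 genes. The part of this coverage difference in the results was not tested.

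**Figure D3:**
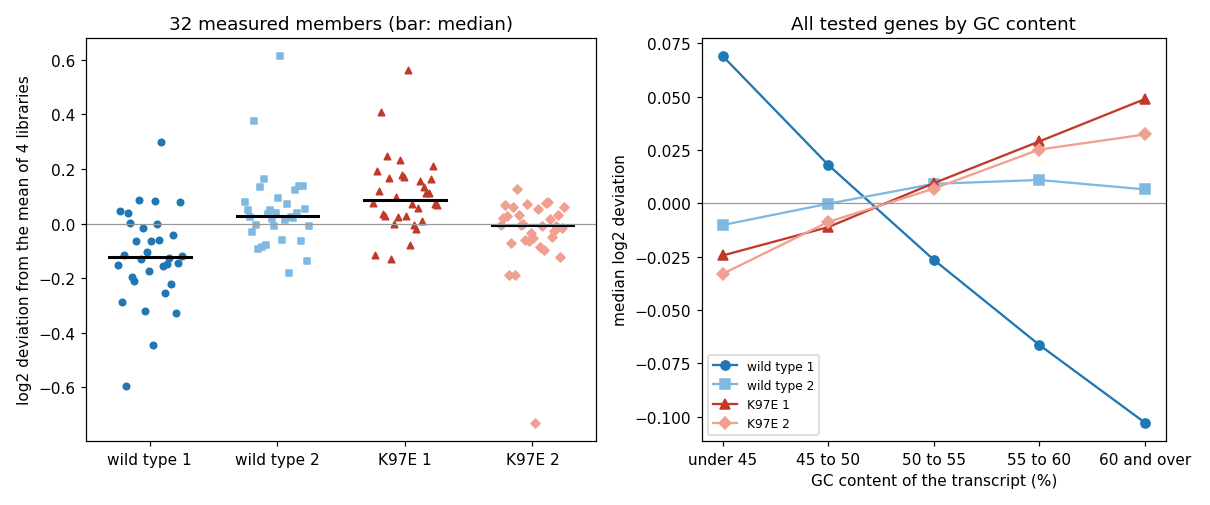
Left, log2 deviation of each of the 32 measured genes from its mean over 4 libraries, by library, with bars at the medians (-0.12, 0.029, 0.087 and -0.0064). Right, median deviation of all tested genes in 5 classes of transcript GC content, where wild-type replicate 1 goes from 0.069 to -0.10.

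The division of a gene's TPM between its transcripts varied between libraries. For 16 of the 32 genes 1 transcript held at least 80% of the gene's TPM in every library, among them Itgb1, Tln1, Parva and Actn1. For 8 genes (Itga10, Itgb4, Src, Pxn, Zyx, Tns3, Flna and Pdlim7) the transcript with most TPM was not the same in all libraries. In Flna and Pdlim7 that split followed the groups. Of the TPM of Flna, the transcript ENSMUST00000114299 held 35.6% and 40.4% with wild-type lamin A and 66.1% and 59.6% with K97E, and of Pdlim7 ENSMUST00000046246 held 34.3% and 37.6% against 44.3% and 45.7%. Shares also lay apart by group in genes whose top transcript was the same in all libraries. For Ilk ENSMUST00000149695 held 6.50% and 6.12% against 15.4% and 15.0% with K97E. For Bcar1 ENSMUST00000166232 held 82.0% and 68.8% against 58.9% and 60.1%. These shares were singled out after their values were seen and were not tested. How often shares lie apart by group over all genes was not worked out.

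Exon coverage in the files allows a look at such splits, because some transcripts differ by an internal exon that has coverage of its own. There were 13 such exons in 10 of the genes, and 4 of them, chosen after their values were seen to show where the 2 measures part and where they meet, are given in full. These exons are printed in capitals, with 12 bases of the neighbouring exons in lower case on each side, 5′ to 3′ on the gene's strand. The letters come from GENCODE M21 transcripts (built on GRCm38), matched by transcript ID and identical exon lengths, and each exon is coding there and a multiple of 3 bases long. GRCm39 positions from the files are chr2:157300763-157300780 (plus strand) for Src, chr5:115689547-115689648 (plus strand) for Pxn, chrX:73276573-73276596 (minus strand) for Flna and chr6:29452798-29452896 (plus strand) for Flnc.
Src exon of 18 bases: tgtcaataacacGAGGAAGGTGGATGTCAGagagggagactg
Pxn exon of 102 bases: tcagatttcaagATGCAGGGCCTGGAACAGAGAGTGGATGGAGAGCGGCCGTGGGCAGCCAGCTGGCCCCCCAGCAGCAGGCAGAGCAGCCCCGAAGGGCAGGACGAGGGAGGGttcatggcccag
Flna exon of 24 bases: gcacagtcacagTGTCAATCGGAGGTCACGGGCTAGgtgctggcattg
Flnc exon of 99 bases: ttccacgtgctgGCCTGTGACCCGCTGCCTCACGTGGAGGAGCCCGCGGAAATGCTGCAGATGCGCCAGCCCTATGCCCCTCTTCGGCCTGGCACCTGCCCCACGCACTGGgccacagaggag

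The Src exon of 18 bases belongs to a kind known from neurons, where Src transcripts carry short extra exons. Its coverage was 4.47%, 2.39%, 4.72% and 4.46% of the mean coverage of the 2 neighbouring exons, in the order wild-type 1, wild-type 2, K97E 1 and K97E 2. The deposited TPM nevertheless put 76.0%, 48.0%, 79.4% and 6.29% of Src on transcripts with this exon. The share thus varied by library from 6.29% to 79.4% while the exon's own coverage stayed under 5%. The transcript ENSMUST00000092576, which has the exon, held 73.7%, 46.7%, 78.1% and 5.83% of Src TPM, and ENSMUST00000029175, which lacks it, 21.3%, 48.7%, 18.5% and 90.3%. The replicates of each group differed more in these shares than in the sum over all Src transcripts. Pxn showed the opposite order of the 2 measures. For the Pxn exon of 102 bases the coverage was 48.2%, 40.2%, 39.1% and 38.7% of its neighbours, above the 15.6%, 18.8%, 9.09% and 10.4% of TPM on transcripts that hold it. The Flna exon of 24 bases had 74.4%, 57.5%, 58.6% and 62.2%, beside 23.2%, 1.59%, 2.49% and 2.71% of TPM. In Flna the exon was likewise covered more than its transcripts' TPM share. For the Flnc exon of 99 bases the 2 measures lay close together, at 79.4%, 87.7%, 92.2% and 84.9% of the neighbours' coverage and 89.8%, 88.5%, 88.5% and 86.8% of TPM. The other exons showed both kinds of gap. The Itga6 exon of 130 bases had between 70.9% and 81.8% of its neighbours' coverage beside 56.2% to 58.9% of TPM. Its neighbours were themselves uneven, at 160 and 477 reads per base in wild-type replicate 1. An Itgb7 exon of 161 bases had between 112% and 136% beside 82.4% to 99.2% of TPM. Coverage relative to the neighbours is therefore not a rate of inclusion. The Itgb4 exon of 195 bases had between 0.304% and 1.11% beside 14.5% to 58.6% of TPM, and the Zyx exon of 93 bases between 88.5% and 115% beside 37.9% to 77.8%. A Ptk2 exon of 9 bases had between 6.02% and 8.43%, and the Tns1 exon of 39 bases between 0.961% and 3.95%. Over all 13 exons, relative coverage in both K97E libraries lay above both wild-type libraries for 1 and below them for 2, and overlapped for 10. The first was a Ptk2 exon of 155 bases, at 18.4% and 18.9% against 20.5% and 22.5% with K97E. The others were the Itga6 exon, at 81.8% and 75.3% against 72.8% and 70.9%, and the Pxn exon. These differences were not tested, and the share over such exons of all genes was not worked out. By gene value, both K97E libraries lay above both wild-type libraries in 16.3% of all tested genes and below them in 16.8%. Coverage of an exon shorter than the 100-base reads depends on spliced alignments, and the loss of such reads was not tested.

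**Figure D4:**
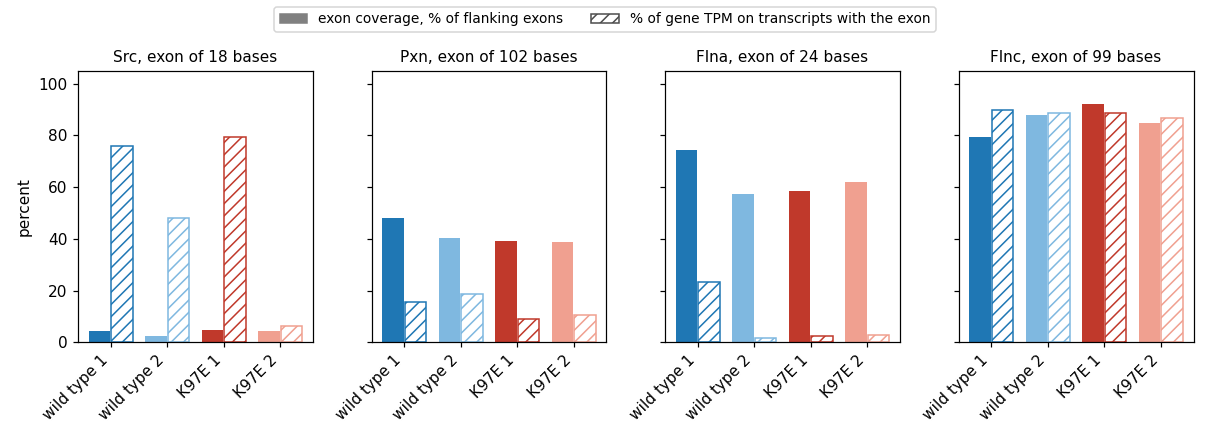
Filled bars give the coverage of 1 alternative exon as a percent of the mean of its neighbours, and hatched bars the percent of the gene's TPM on transcripts with that exon, by library. For Src the filled bars stay under 5% while the hatched bars run from 6.29% to 79.4%, and for Flnc both kinds lie between 79.4% and 92.2%.

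Genes that work beside these ones, from lists set up for the comparison, had no called member either. Of 10 other integrin subunits 5 were measured, 3 higher and 2 lower by value, with a median log2 difference of 0.013. Itga7, the laminin receptor chain of muscle, was their most abundant, at 127 and 191 with wild-type lamin A and 146 and 169 with K97E, with wild-type replicate 1 low and overlapping groups. Its exons overlap those of Mettl7b. Itga2b, the platelet fibrinogen receptor chain, stood at 2.87 and 3.17 against 3.28 and 3.25, Itgal, the LFA-1 alpha chain, at 0.521 and 0.559 against 0.623 and 0.778, and Itgb6, known from epithelia, at 0.696 and 1.08 against 0.667 and 0.776. Their log2 differences were 0.099, 0.20 and -0.17.

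Of 57 further plaque genes 54 were measured, 37 higher and 17 lower by value with a median of 0.056. At an unadjusted p under 0.05 there were 2, both lower by value, against 3.68% of all tested genes in either direction. In 12 of the 54 both K97E libraries lay above both wild-type libraries and in 6 below, against 16.3% and 16.8% of all tested genes. Enah, the VASP relative Mena, stood at 15.9 and 14.1 with wild-type lamin A and 10.6 and 10.7 with K97E, with both K97E libraries low. Its log2 difference was -0.47 (SE 0.11, 95% interval -0.75 to -0.19, limma adjusted p = 0.965). Itgb1bp2, the muscle chaperone melusin that binds the beta 1 tail, stood at 1.34 and 1.04 with wild-type lamin A and 0.422 and 0.389 with K97E, again with both K97E libraries low and a difference of -0.90 (SE 0.22, 95% interval -1.44 to -0.35, limma adjusted p = 0.965). This gene lay near the threshold of 0.5, at a mean TPM of 0.79, and passed it through the wild-type libraries. Its lowest library held about 25.5 estimated reads. Ajuba, a LIM-domain protein of adhesions, differed by 0.30. The most abundant were Cav1, the caveolin, at 491 and 968 with wild-type lamin A and 830 and 623 with K97E, and Csrp1, a LIM protein on actin, at 296 and 376 against 386 and 310, both with wild-type replicate 1 the lowest and overlapping groups.

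Of 37 integrin ligands 30 were measured, 20 higher and 10 lower by value, with a median of 0.053. At an unadjusted p under 0.05 there was 1, against 3.68% of all tested genes. In 6 of the 30 both K97E libraries lay above both wild-type libraries and in 2 below, against 16.3% and 16.8% of all tested genes. Vcam1, a membrane ligand of alpha 4 integrins, stood at 65.1 and 66.0 with wild-type lamin A and 43.9 and 52.8 with K97E, with both K97E libraries low and a log2 difference of -0.44 (SE 0.11, 95% interval -0.73 to -0.16, limma adjusted p = 0.965). Mfge8 and Fbn1, both ligands of alpha v integrins, differed by 0.25 and 0.18. The most abundant were Spp1, which encodes osteopontin, at 6148 and 5742 against 5230 and 5708, and Col3a1, a fibrillar collagen chain, at 1473 and 2127 against 1431 and 1858. The groups did not overlap for Spp1, by a log2 difference of -0.12, and its exons overlap those of Gm42793, while they overlapped for Col3a1. In RNA from whole cultures, fewer cells with a transcript and less of it per cell cannot be told apart.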

How the data were processed

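Each deposited file holds 1 library. Per the file headers, the authors ran StringTie 2.1.7 on annotated transcripts only, with Ensembl release 104 of GRCm39 and no strand option; deposited values are TPM, FPKM and coverage for 142434 transcripts. The submitters' processing notes also name HISAT2, SAMtools, FastQC and DESeq2, with no role given. Read counts were not used; reads were estimated as coverage times transcript length over 100. Groups came from sample titles.

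Gene TPM was summed over transcripts, divided by median-of-ratios factors (0.98, 0.98, 1.04 and 1.00), and tested as log2(TPM + 0.5) for 16304 genes of mean TPM at least 0.5 with limma 3.58.1 in R 4.3.3 (lmFit, eBayes with trend, 5.54 total degrees of freedom), two-sided, Benjamini-Hochberg, threshold 0.05. Fold changes are on that scale, which understates changes of low genes. With 2 libraries a group an exact permutation test cannot go below 0.333. On simulated data for 16304 genes, the test called 62 of 100 genes with a 2-fold change and 99 of 100 with a 4-fold one. It also called 6 unchanged genes. The changed genes had a mean log2 value above 2. Simulated noise was independent between libraries and genes, with no shift shared by a library or by GC content. The share called in the real data may therefore be lower. Members and lists were chosen with earlier results of these data known. Every member is named, with errors for the 6 smallest p and the 2 largest differences each way; lists are named by their 3 smallest p and 2 highest levels. GC content came from GENCODE M21 transcripts matched by ID for 98.7% of tested genes. Python 3.11.15, pandas 2.3.3 and matplotlib 3.10.9 were used for tables and figures.

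Numbered replicates were not treated as pairs in the main fit. Deviations of same-numbered libraries had a correlation of -0.14 over 16304 genes. With 2 libraries a group the crossed pairing must give the opposite value, 0.14. The correlation thus cannot show whether same-numbered libraries were handled together. Alternatives were other pseudocounts, filters, scalings and variance settings, FPKM, voom weights, blocks, a GC correction and each library left out. TMM factors were not run.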

Additional observations from a re-analysis of the deposited data

How the results depend on the processing

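No integrin or focal adhesion gene was called under any of the 18 alternatives run. Their median log2 difference stayed positive, from 0.010 to 0.17 with 1 library left out and from 0.041 to 0.14 under the others. Of 32 genes 11 kept their direction under all 18, and 20 turned under at least 1, all without a call. Tln1 kept its direction under 17. It had no value in the setting without overlapping genes, like Ilk and Zyx, and Itga10 and Lims2 had none at a mean TPM of at least 5. Across all tested genes 1 gene was called as reported. This became 0 with no filter on low values, 2 with TPM as deposited, 2 with eBayes without trend, 4 with voom weights, 0 without genes whose exons overlap another measured gene, and between 0 and 12 with a library left out (12 without wild-type replicate 1). With the replicate number as a block it was 0, and no member's call changed. The crossed replicate block (wild-type 1 with K97E 2), added after seeing the data, gave 30. The cause of these shifts was not tested.

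Directions turned as follows. With TPM as deposited, which moved the median of all genes from -0.0017 to 0.052, the log2 difference was 0.023 for Itgb1, 0.047 for Itgb8, 0.022 for Fermt2, 0.031 for Lims1, 0.034 for Ptk2, 0.045 for Bcar1 and 0.044 for Pxn. With quantile normalization it was 0.010 for Itgb1, 0.015 for Itgb8 and 0.00093 for Bcar1. With FPKM it was 0.017 for Itgb8, 0.0014 for Lims1, 0.0049 for Ptk2, 0.016 for Bcar1 and 0.015 for Pxn. With voom weights it was 0.029 for Itgb8, 0.031 for Lims1, 0.012 for Bcar1, 0.039 for Pxn and -0.017 for Pdlim7. With the GC correction it was -0.0016 for Itgb7, 0.063 for Itgb8, 0.040 for Lims1, -0.044 for Zyx and -0.0024 for Pdlim7. With 1 library left out the differences ran from -0.042 to 0.19 for Itga5, -0.27 to 0.70 for Itga10, -0.089 to 0.019 for Itgb1, -0.21 to 0.014 for Itgb4, -0.16 to 0.28 for Itgb7, -0.089 to 0.076 for Itgb8, -0.076 to 0.0049 for Fermt2, -0.0083 to 0.23 for Ilk, -0.11 to 0.051 for Lims1, -0.81 to 0.48 for Lims2, -0.096 to 0.049 for Ptk2, -0.091 to 0.067 for Bcar1, -0.080 to 0.053 for Pxn, -0.36 to 0.12 for Tgfb1i1, -0.11 to 0.16 for Zyx, -0.041 to 0.42 for Vasp, -0.075 to 0.26 for Tns1, -0.0040 to 0.18 for Actn1, -0.095 to 0.26 for Flnc and -0.052 to 0.17 for Pdlim7. In simulated data of this size, without library or GC shifts, 62 of 100 genes with a 2-fold change were called. The share may be lower in the real data, and smaller differences may not be detectable.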
